A study of Homo sapiens with 10 samples.

Results

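The BCL2 family was followed in 2 Group 3 medulloblastoma cell lines, D425 and HD-MB03, through 10 members: the anti-apoptotic BCL2, BCL2L1, MCL1 and BCL2L2 and the pro-apoptotic BAX, BAK1, BCL2L11, BID, BIK and BMF. The members were chosen by name and matched by Ensembl identifier, and all 10 were among the 57820 gene identifiers counted. Of these, 9 passed the filter on low counts that left 16006 genes for testing, and BIK did not. D425 shCRX (3 libraries) carried a doxycycline-inducible lentiviral Tet-pLKO-puro vector with a short hairpin RNA against CRX, which encodes a photoreceptor homeobox factor, and D425 controls were 2 parental libraries and 1 empty-vector library. HD-MB03 libraries labelled shCRX numbered 2 and were set against 1 parental and 1 empty-vector library of that line. All cells, controls included, were treated with doxycycline at 4 µg/ml for 72 h in medium with 10% serum. Transduced cells were stable polyclonal populations. Both of the study's hairpins may be present in an arm, because no label ties a library to a hairpin. Levels are given as CPM, counts scaled to the effective library size. Levels of different genes are compared as CPM per kb of the longest annotated transcript, unless another length is named.

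BCL2 family proteins set whether the outer mitochondrial membrane is opened during intrinsic apoptosis. BAX and BAK1 form the pore, the anti-apoptotic proteins bind and hold back pore formers and their activators, and BH3-only proteins, encoded here by BCL2L11 (BIM), BID, BIK and BMF, either activate BAX and BAK1 or occupy the anti-apoptotic proteins. Tumour cells often depend on a particular anti-apoptotic member, commonly BCL2, BCL-XL (the long product of BCL2L1) or MCL1.

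Promoter sequence is given for the members on which the results below turn, because the manipulated gene encodes a homeobox factor whose binding core is TAATCC. RefSeq promoters of GRCh38.p14 were matched for 7 of the 10 members (13 start sites), and MCL1, BCL2L2 and BIK were not matched. Each line holds the 250 bases before the start, 5′ to 3′ on the gene's strand. They are chr18:63319770-63320019 (minus strand), chr20:31723964-31724213 (minus strand), chr2:111120664-111120913 (plus strand) and chr15:40108880-40109129 (minus strand). Capitals mark matches to GGGCGG, the GC box, and to GTAAACA, a FOXO-type site, each searched with its reverse complement.
BCL2: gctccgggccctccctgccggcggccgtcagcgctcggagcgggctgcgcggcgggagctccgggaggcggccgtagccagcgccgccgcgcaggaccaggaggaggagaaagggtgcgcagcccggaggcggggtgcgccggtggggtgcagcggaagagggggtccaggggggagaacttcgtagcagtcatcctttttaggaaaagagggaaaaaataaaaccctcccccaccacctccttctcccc
BCL2L1: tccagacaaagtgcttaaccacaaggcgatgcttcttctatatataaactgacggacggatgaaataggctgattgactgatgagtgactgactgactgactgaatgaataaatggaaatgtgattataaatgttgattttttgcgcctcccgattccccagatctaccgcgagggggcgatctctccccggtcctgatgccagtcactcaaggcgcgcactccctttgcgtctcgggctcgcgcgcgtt
BCL2L11: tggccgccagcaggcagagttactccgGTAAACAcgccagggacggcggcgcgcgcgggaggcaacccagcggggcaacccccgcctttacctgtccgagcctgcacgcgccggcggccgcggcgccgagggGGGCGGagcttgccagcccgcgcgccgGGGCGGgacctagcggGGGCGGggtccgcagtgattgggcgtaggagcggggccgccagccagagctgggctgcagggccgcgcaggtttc
BMF: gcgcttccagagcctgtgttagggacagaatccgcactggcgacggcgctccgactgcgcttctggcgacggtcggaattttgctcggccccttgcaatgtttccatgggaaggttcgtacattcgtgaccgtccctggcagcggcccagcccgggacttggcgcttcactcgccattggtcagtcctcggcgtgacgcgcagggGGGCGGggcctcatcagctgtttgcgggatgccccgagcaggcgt
The letters TAATCC, on either strand, were in 0 of the 13 windows of the 7 matched members, against 5.62% of 35116 promoters of the same length. GTAAACA was found in 1 of the 13 windows, that of BCL2L11, against 2.98% of promoters, and GGGCGG in 8, 4 of them from the 5 start sites of BID, against 42.6%. The windows of BCL2 and BCL2L1 printed above held none of these letters, and BCL2L11 held 3 GC boxes.

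The targeted gene was measured first. CRX stood at 20.3, 20.9 and 25.3 CPM in D425 shCRX libraries 1 to 3, against 47.5 and 29.7 CPM in the D425 parental libraries and 64.9 CPM in the D425 vector library. In HD-MB03 the libraries labelled shCRX had 27.7 and 23.5 CPM, against 12.5 CPM in the parental and 12.3 CPM in the vector library. CRX was thus lower in D425 shCRX (log2 fold change -1.10 ± 0.26 SE, edgeR adjusted p = 0.0436) and, against the label, not lower in HD-MB03 (1.04 ± 0.36, adjusted p = 0.174). The numbers in the library names fell into 2 sets, 20 to 62 for D425 shCRX and HD-MB03 controls and 110 to 136 for D425 controls and HD-MB03 libraries labelled shCRX, so within a line the arm and the set cannot be told apart. CRX was higher in the higher-numbered set in both lines. Reads in genes ranged from 1.96 to 18.06 M per library, lowest in the HD-MB03 controls, where 30.9% and 26.4% of reads were not aligned, against 4.54 to 7.99% elsewhere. The 9 markers of Group 3 medulloblastoma, CRX among them, summed to 2237 to 4319 CPM per library, led by OTX2 or IMPG2. Of these, NPR3 had 0 counts in D425 shCRX, and NPR3 and MAB21L2 had 0 in HD-MB03 controls. Summed markers of fibroblasts, macrophages and microglia, endothelium, astrocytes and oligodendrocytes each stayed at or under 14.1 CPM. In bulk RNA, fewer cells that express a gene and less RNA per cell cannot be told apart.

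**Figure D1:**
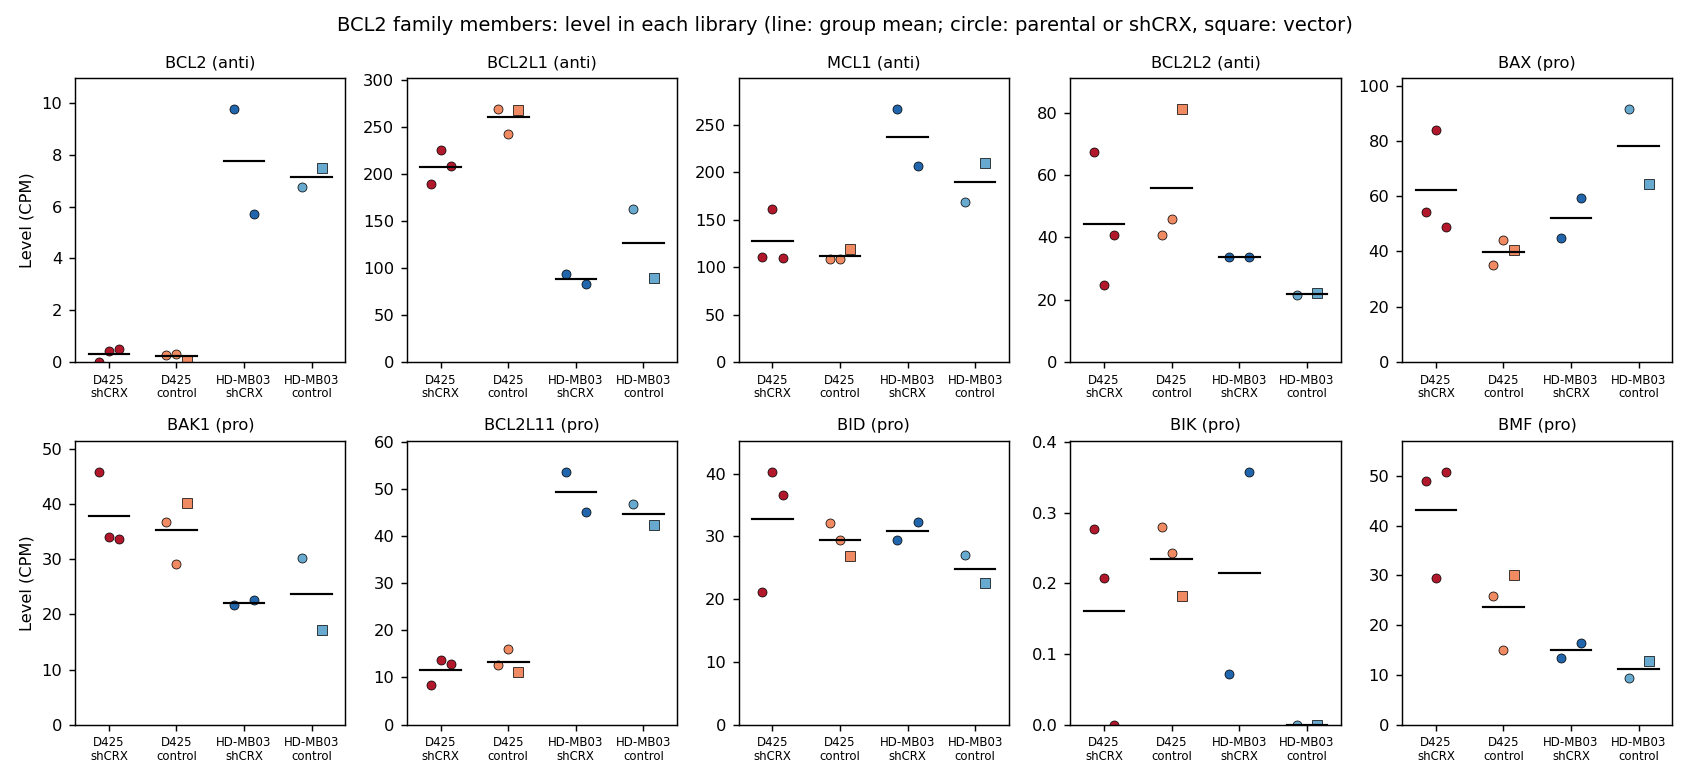
Level of each of the 10 members in each library (CPM, linear axis from 0, a separate scale per gene); points are libraries and horizontal lines group means. BCL2, MCL1 and BCL2L11 were lower, and BCL2L1 higher, in all 6 D425 libraries than in all 4 HD-MB03 libraries. The arms overlapped in D425 except for BCL2L1 and BAX, and in HD-MB03 except for BCL2L2, BAX, BID, BIK and BMF. Shares of all genes without overlap, between lines or between arms, were not counted.

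The clearest differences lay between the lines. BCL2L1 was the highest anti-apoptotic member per length in D425, BCL2L1 and MCL1 overlapped in HD-MB03, BCL2 was almost without reads in D425, and among BH3-only genes BMF was higher and BCL2L11 lower in D425. Averaged over arms, 7 of the 9 tested members differed (edgeR quasi-likelihood test, Benjamini-Hochberg adjusted p under 0.05), 4 higher and 3 lower in D425. Across all tested genes 46.0% differed in this comparison, 24.4% higher and 21.6% lower, and the 7 of 9 members are to be read against that background. The median log2 fold change was 0.16 over the 9 members and 0.046 over all tested genes. The study's labels do not state this comparison as an aim; it follows from the presence of both lines.

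BCL2, the founding anti-apoptotic member, had 0.00, 0.41 and 0.51 CPM in D425 shCRX and 0.28, 0.32 and 0.09 CPM in D425 controls, against 9.79 and 5.73 CPM in HD-MB03 libraries labelled shCRX and 6.77 and 7.51 CPM in HD-MB03 controls. Every D425 library was below every HD-MB03 library. In counts, BCL2 had 14 reads of 59.8 M in D425 and 244 of 32.9 M in HD-MB03, an HD-MB03 over D425 ratio of 31.7 (95% exact interval 18.5 to 58.9, counting error only). The fitted log2 fold change, D425 over HD-MB03, was -4.92 ± 0.53 (SE, edgeR adjusted p = 1.14e-05). All 6 D425 values lie near the level of a few reads, so differences among them cannot be read.

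BCL2L1, whose long product is BCL-XL, was the highest member per length in D425. It had 189, 225 and 208 CPM in D425 shCRX and 269, 243 and 268 CPM in D425 controls, against 93.6 and 82.7 CPM in HD-MB03 libraries labelled shCRX, 163 CPM in the HD-MB03 parental library and 89.0 CPM in the HD-MB03 vector library. The lines did not overlap, and the HD-MB03 parental library stood well above the other 3 of its line. D425 was higher by 1.14 ± 0.17 on the log2 scale (adjusted p = 0.000181). In the annotation 43.0% of the exonic bases of BCL2L1 are also covered on the opposite strand by the antisense transcript ABALON, and the strand setting of the counting is not given in the sources used here, so reads of the pair may not be separated.

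MCL1 encodes a short-lived anti-apoptotic protein. Its levels were 111, 161 and 109 CPM in D425 shCRX and 109, 108 and 119 CPM in D425 controls, against 267 and 207 CPM in HD-MB03 libraries labelled shCRX and 169 and 210.2 CPM in HD-MB03 controls. The lines did not overlap, with a narrow gap between D425 shCRX library 2 and the HD-MB03 parental library. MCL1 was lower in D425 by -0.83 ± 0.16 (log2, adjusted p = 0.000907). BCL2L2, which encodes BCL-w, ranged from 24.6 to 81.3 CPM in D425 (median 43.4) and from 21.3 to 33.8 CPM in HD-MB03, and the lines overlapped. Its fitted difference was 0.89 ± 0.29 (adjusted p = 0.0235). The call was lost when any of the 4 HD-MB03 libraries was left out (adjusted p = 0.0783 without the parental, 0.0699 without the vector, 0.0584 and 0.0581 without shCRX library 1 or 2, and 2.13e-05 to 0.254 over all alternatives). BCL2L2 also shares 19.4% of its exonic bases with the read-through gene BCL2L2-PABPN1 on the same strand.

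Of the pore formers, BAK1 had 46.0, 34.1 and 33.8 CPM in D425 shCRX and 36.7, 29.2 and 40.2 CPM in D425 controls, against 21.7 and 22.6 CPM in HD-MB03 libraries labelled shCRX and 30.2 and 17.2 CPM in HD-MB03 controls. Only the HD-MB03 parental library reached into the D425 range. BAK1 was higher in D425 by 0.68 ± 0.20 (log2, adjusted p = 0.0125), a call lost without the HD-MB03 vector library (0.52, adjusted p = 0.0599, with 0.00188 to 0.136 over all alternatives). BAX overlapped between the lines, with 34.9 to 84.0 CPM in D425 and 45.0 to 91.6 CPM in HD-MB03, and a difference of -0.36 ± 0.19 (adjusted p = 0.137). That mean over arms passed without D425 shCRX library 2 (-0.45, adjusted p = 0.0401). Between the controls alone BAX was lower in D425 (-0.97 ± 0.27, a fold of 0.511, adjusted p = 0.0143), and over all alternatives its adjusted p ran from 0.0143 to 0.827.

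The BH3-only genes split. BCL2L11, which encodes BIM, an activator of BAX and BAK1 and a binder of all anti-apoptotic members described here, had 8.40, 13.6 and 12.8 CPM in D425 shCRX and 12.5, 16.0 and 11.1 CPM in D425 controls, against 53.7 and 45.2 CPM in HD-MB03 libraries labelled shCRX and 46.8 and 42.4 CPM in HD-MB03 controls. The lines did not overlap, and BCL2L11 was lower in D425 by -1.93 ± 0.19 (log2, a fold of 0.262, adjusted p = 4.08e-06). BMF, a BH3-only protein held at the cytoskeleton in healthy cells, had 49.0, 29.6 and 50.9 CPM in D425 shCRX and 25.9, 14.9 and 30.1 CPM in D425 controls, against 13.4 and 16.5 CPM in HD-MB03 libraries labelled shCRX and 9.37 and 12.9 CPM in HD-MB03 controls. D425 parental library 2 fell among the HD-MB03 values, and all other D425 libraries were above them. BMF was higher in D425 by 1.31 ± 0.25 (adjusted p = 0.00112).

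BID, which is cleaved by caspase-8 and so links death receptors to mitochondria, was at like levels in both lines, 21.1 to 40.3 CPM in D425 and 22.5 to 32.2 CPM in HD-MB03. Its difference was 0.16 ± 0.20 (log2, adjusted p = 0.535), with a 95% interval of -0.27 to 0.59. BIK, a BH3-only protein of the endoplasmic reticulum, had 20 counts in the 10 libraries together and was not tested. It had 14 counts in D425 and 6 in HD-MB03, an HD-MB03 over D425 ratio of 0.780 (95% exact interval 0.246 to 2.16), and both HD-MB03 controls had 0 counts, where a floor of 3 counts is 1.44 to 1.53 CPM.

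Exact permutation tests on log2(CPM + 0.5) over the 6 D425 and 4 HD-MB03 libraries reached the smallest p they can give, 0.00952 two-sided, for BCL2, BCL2L1, MCL1 and BCL2L11. That value marks the members whose lines did not overlap. The share of all genes whose lines did not overlap was not counted, so it is not a result about these members. The tests gave 0.019 for BAK1 and for BMF, 0.0571 for BCL2L2, 0.219 for BAX and 0.514 for BID. No label says whether the libraries within a group are separate cultures, so all p-values here measure the spread between these libraries, which may be technical.

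The line difference was also taken within each set of library numbers. In the higher-numbered set, D425 controls against HD-MB03 libraries labelled shCRX, 4 members passed (BCL2, BCL2L1, MCL1 and BCL2L11), against 31.2% of all tested genes. In the lower-numbered set, D425 shCRX against HD-MB03 controls, 4 passed (BCL2, BCL2L1, BCL2L11 and BMF), against 30.7%. BCL2, BCL2L1 and BCL2L11 therefore differed within both sets, BCL2 by -4.95 and -4.90, BCL2L1 by 1.56 and 0.72 and BCL2L11 by -1.90 and -1.96 in the higher-numbered and the lower-numbered set. MCL1 differed by -1.08 (adjusted p = 0.00246) and -0.58 (0.0666), and BMF by 0.66 (0.145) and 1.96 (0.00253), in the same order. Between D425 controls and HD-MB03 controls 7 passed, against 34.3% of all tested genes, with BAX among them and BAK1 not (0.58, adjusted p = 0.136). With both HD-MB03 control libraries left out, 6 members passed, against 37.1% of all tested genes, and BCL2L2 did not (0.56, adjusted p = 0.254). Of the 7 calls, BCL2, BCL2L1, MCL1, BCL2L11 and BMF held without any of the 10 libraries in turn.

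**Figure D2:**
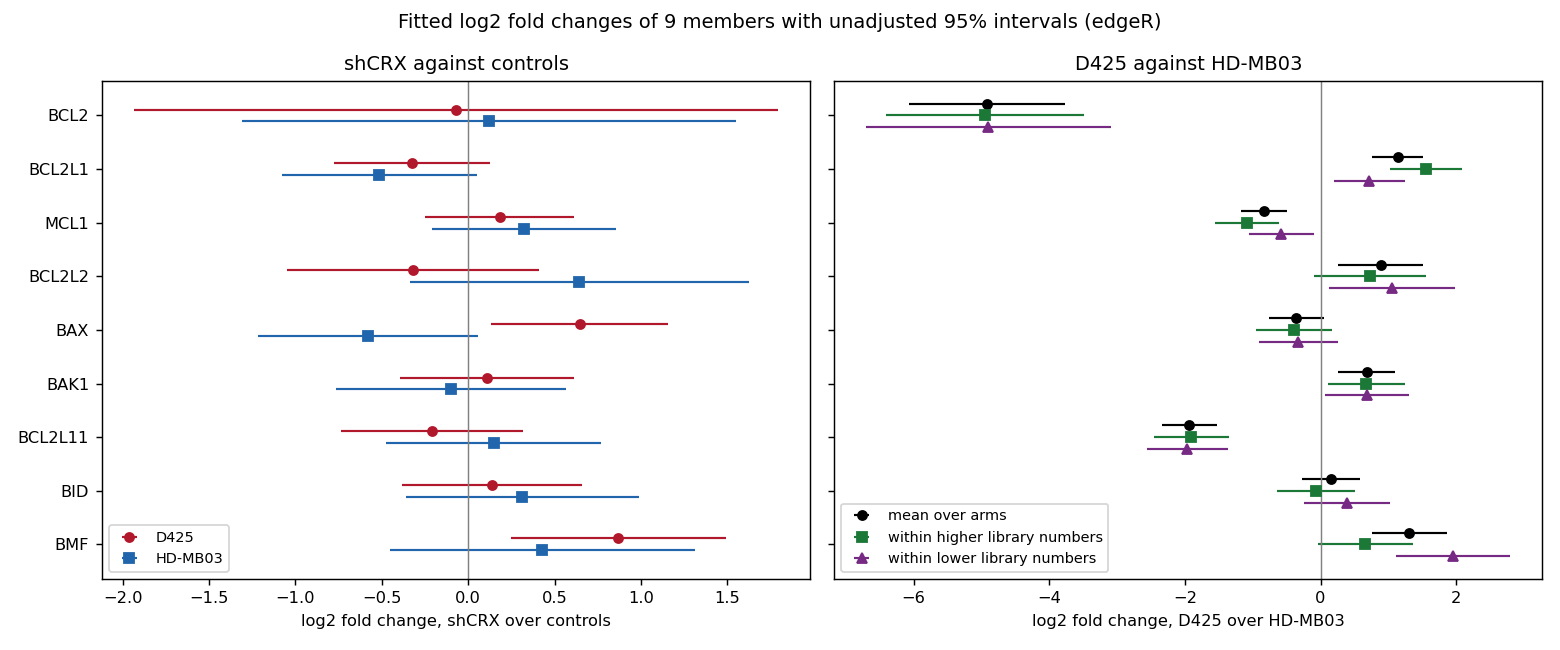
Fitted log2 fold changes of the 9 tested members with unadjusted 95% intervals, for shCRX over controls within each line (left) and for D425 over HD-MB03 (right, as a mean over arms and within each set of library numbers). The intervals of BCL2, BCL2L1, MCL1, BAK1 and BCL2L11 exclude 0 in all 3 versions of the line comparison, and on the left only those of BAX and BMF in D425 do.

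Per length of transcript, BCL2L1 ranked highest in D425 with 89.6 ± 12.4 CPM per kb (SD, n = 6), above every value of BAX (37.6 ± 12.8) and MCL1 (30.4 ± 5.26), which overlapped each other. BAK1 (16.6 ± 2.63), BCL2L2 (13.9 ± 5.71), BID (12.5 ± 2.76) and BMF (7.13 ± 2.98) followed, each overlapping the next. BCL2L11 (2.37 ± 0.486), BIK (0.208 ± 0.109) and BCL2 (0.0362 ± 0.0259) came last, with BIK and BCL2 overlapping. In HD-MB03 MCL1 (54.3 ± 10.3 CPM per kb, SD, n = 4), BAX (47.9 ± 14.4) and BCL2L1 (41.0 ± 14.4) led and overlapped. BID (11.1 ± 1.65), BAK1 (10.4 ± 2.44), BCL2L11 (8.99 ± 0.919) and BCL2L2 (7.69 ± 1.95) followed, again overlapping, then BMF (2.78 ± 0.621), BCL2 (0.998 ± 0.231) and BIK (0.113 ± 0.179). These orders depend on the length used. With median transcript lengths BCL2L1 still ranked first in D425 (255.7 ± 35.4 CPM per kb), but BCL2L2 (87.7 ± 36.0) came second and was above MCL1 (50.5 ± 8.74) in 5 of 6 libraries, and BMF (51.3 ± 21.4) was above BAK1 (17.2 ± 2.72) in every library. In HD-MB03 the same lengths put BCL2L1 (117 ± 41.0) above MCL1 (90.1 ± 17.1) in 3 of 4 libraries.

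BCL2L1 made up 60.6 to 72.5% of the summed anti-apoptotic level per length in D425 libraries and 31.3 to 55.6% in HD-MB03 libraries, and MCL1 19.5 to 30.5% and 38.3 to 59.3%. The ratio of BCL2L1 to MCL1 was 2.11 to 3.72 in D425 and 0.528 to 1.45 in HD-MB03, where the highest value belonged to the parental library. With median transcript lengths this ratio was 3.62 to 6.41 in D425 and 0.908 to 2.50 in HD-MB03. BCL2 supplied at most 0.0576% of the anti-apoptotic sum in D425 and 0.808 to 1.15% in HD-MB03. These shares add RNA of different genes and say nothing of protein.

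Summed anti-apoptotic over summed pro-apoptotic level per length was 1.47, 1.31 and 1.50 in D425 shCRX, against 2.24 and 2.08 in the D425 parental libraries and 2.31 in the D425 vector library. Every D425 shCRX library was below every D425 control. HD-MB03 libraries labelled shCRX had 1.69 and 1.19, against 1.09 in the parental and 1.26 in the vector library, and these overlapped. In D425 the anti-apoptotic sum was 124 ± 8.60 CPM per kb in shCRX and 144 ± 11.3 in controls (SD, n = 3 each), and the pro-apoptotic sum 87.7 ± 12.9 in shCRX and 64.9 ± 2.10 in controls. The means of the sums thus lay apart in opposite directions. The anti-apoptotic sums of the arms overlapped, with 134.1 in D425 shCRX library 2 and 133.3 in D425 parental library 2. The pro-apoptotic sums did not overlap. Without BCL2L1 and BAX, the highest member of each sum, the ratio was 1.07 ± 0.143 in D425 shCRX and 1.24 ± 0.189 in D425 controls, and the arms overlapped. The ratio is a description of members chosen by name and carries no test, and in D425 it moves with the library-number set as well as with the arm.

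**Figure D3:**
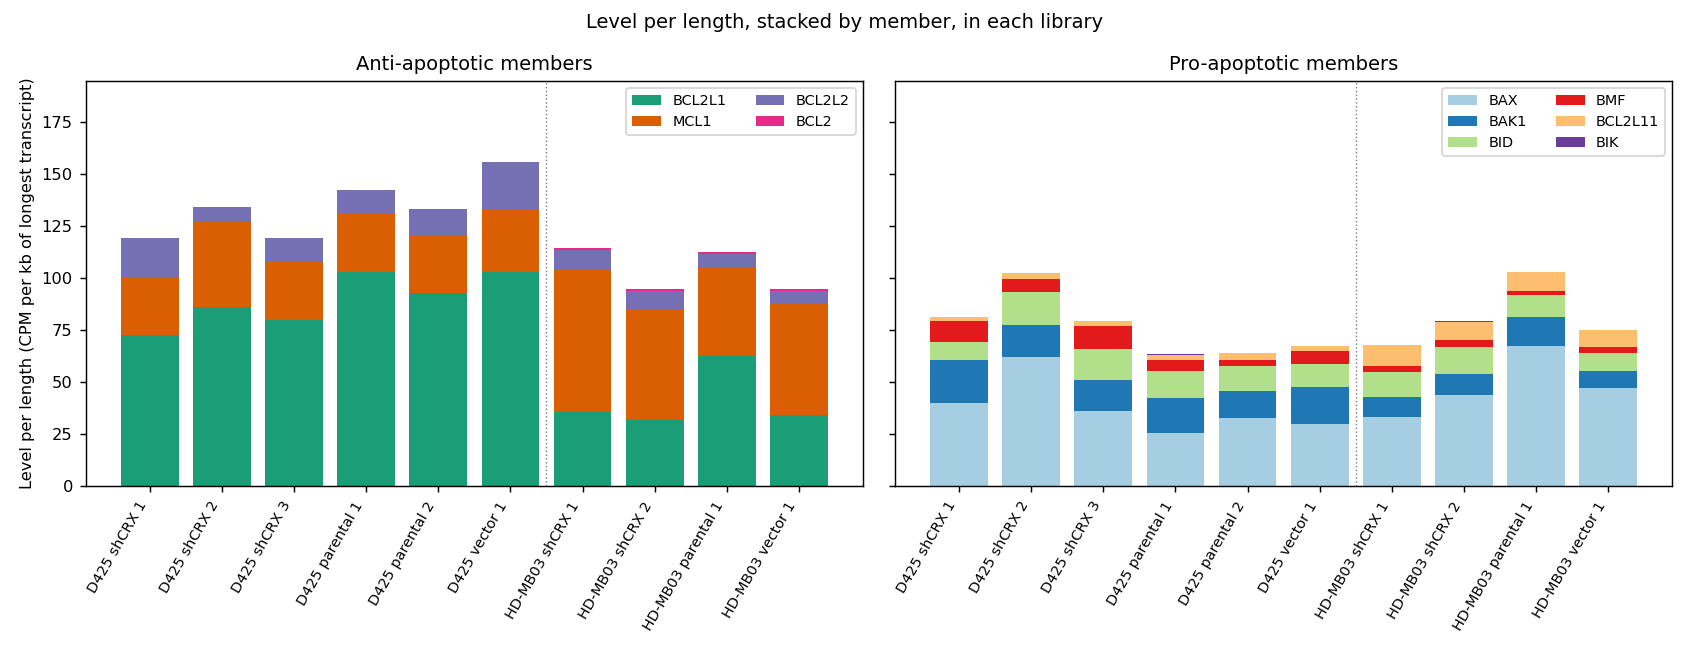
Level per length (CPM per kb of the longest transcript) of each member, stacked, in each library, for anti-apoptotic members (left) and pro-apoptotic members (right). BCL2L1 makes up most of every D425 anti-apoptotic bar, and the pro-apoptotic bars of D425 shCRX are taller than those of D425 controls, with higher mean levels of BAX and BMF.

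Whether BCL2 family genes respond to the hairpin was asked within each line. In D425, 0 of the 9 tested members passed between shCRX and controls with edgeR, against 2.97% of all tested genes (1.61% higher and 1.37% lower). At an unadjusted p under 0.05 there were 2, BMF and BAX. DESeq2 and limma-voom also passed 0 members, against 6.54% and 3.77% of the genes each tested. The median log2 fold change was 0.11 over the 9 members and 0.019 over all genes. BMF averaged 43.2 ± 11.8 CPM in D425 shCRX and 23.6 ± 7.83 CPM in D425 controls (SD, n = 3 each), with D425 shCRX library 2 just below the vector library. Its fitted change was 0.87 ± 0.29 (log2, adjusted p = 0.131), the largest of the 9 in size. With no filter on low counts BMF passed (0.81, adjusted p = 0.0466, with 0.0466 to 0.647 over all alternatives), where 3.85% of 31421 genes passed.

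BCL2L1 in D425 averaged 208 ± 18.2 CPM in shCRX and 259.9 ± 15.0 CPM in controls (SD, n = 3 each), and all shCRX libraries were below all controls. The fitted change was -0.33 ± 0.21 (log2, adjusted p = 0.462). The remaining members, BCL2, MCL1, BCL2L2, BAK1, BCL2L11 and BID, had changes of -0.32 to 0.18 in D425, none past the test. Of the 10 members, only BCL2L1 and BAX showed no overlap of the arms in D425. An exact permutation test of 3 against 3 libraries cannot go below 0.1, the value both reached. The share of all genes whose arms did not overlap was not counted.

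In HD-MB03, 0 of 9 members passed between libraries labelled shCRX and controls, against 1.51% of all tested genes (0.262% higher and 1.24% lower). At an unadjusted p under 0.05 there were 0 with edgeR, 2 with DESeq2 and 0 with limma-voom. No member passed the adjusted threshold with DESeq2 or limma-voom, against 5.83% and 1.06% of the genes each tested. The median log2 fold change was 0.15 over the members and 0.10 over all genes. BCL2L2 was at 33.8 CPM in both libraries labelled shCRX, against 21.3 and 22.0 CPM in controls, a fitted 0.64 ± 0.45 (adjusted p missing the threshold in all alternatives, 0.291 to 0.828). BCL2L1 differed by -0.52 ± 0.26 (adjusted p = 0.335), a value that rested on the parental library and was 0.0040 without it. The other changes ran from -0.58 for BAX to 0.43 for BMF. The arms did not overlap for BCL2L2, BAX, BID, BIK and BMF, with BIK near the floor. With 2 against 2 libraries an exact permutation test cannot go below 0.333, the value each of these reached. The share of all genes whose arms did not overlap was not counted.

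As a mean of both lines, 0 of 9 members passed, against 0.225% of all tested genes, with 2 at an unadjusted p under 0.05. These were BMF (0.65 ± 0.25, adjusted p = 0.288) and BCL2L1 (-0.42 ± 0.17, adjusted p = 0.304). BMF had a positive and BCL2L1 a negative change in each line, and neither reached the threshold. The HD-MB03 change of BCL2L1 rested on the parental library of that line and was 0.0040 without it.

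BAX had arms that did not overlap in either line, in opposite directions, a pattern whose share of all genes was not counted. It had 54.1, 84.0 and 48.9 CPM in D425 shCRX, against 34.9, 44.2 and 40.4 CPM in D425 controls, and 45.0 and 59.4 CPM in HD-MB03 libraries labelled shCRX, against 91.6 and 64.3 CPM in HD-MB03 controls. All D425 shCRX libraries were above their controls and both HD-MB03 libraries labelled shCRX were below theirs, so in each line BAX was higher in the lower-numbered libraries. The change was 0.65 ± 0.24 in D425 (adjusted p = 0.174) and -0.58 ± 0.30 in HD-MB03 (adjusted p = 0.336). The difference of these effects was 1.23 ± 0.38 (log2), with an edgeR adjusted p of 0.0889, and BAX passed with DESeq2 (1.29, adjusted p = 0.0283, with 0.0283 to 0.544 over all alternatives), where 9.69% of genes passed. After a correction for GC content and transcript length the difference was 0.57 (adjusted p = 0.371), with 0.37 in D425 and -0.20 in HD-MB03. Of the 9 members 0 passed this comparison with edgeR and 1, BAX, was under an unadjusted p of 0.05, against 4.16% of all tested genes passing (2.67% positive and 1.49% negative). CRX passed it, with -2.14 ± 0.45 (adjusted p = 0.0199).

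Other genes of the pathway, in 6 lists chosen by function, were tested in the same fit. Of all tested genes, 2.97% passed in D425, 1.51% in HD-MB03 and 4.16% for the difference of the effects. Of 9 tested further BCL2 family members, 0 passed in either line. For the difference of the effects 2 passed, BAD (2.73 ± 0.61, adjusted p = 0.0264), whose protein binds BCL-XL and BCL2, and BOK (2.87 ± 0.51, adjusted p = 0.0101), a relative of BAX and BAK1. BOK had 12.6, 10.1 and 13.3 CPM in D425 shCRX, against 6.33, 5.57 and 5.45 CPM in D425 controls, and 1.50 and 2.22 CPM in HD-MB03 libraries labelled shCRX, against 7.29 and 5.90 CPM in HD-MB03 controls. In each line the lower-numbered libraries were the higher, as for BAX.

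Downstream of the pore, 9 of 9 genes of the apoptosome and mitochondrial release list were tested, and ENDOG, a mitochondrial nuclease, passed in both lines and in opposite directions. It had 6.37, 11.2 and 10.2 CPM in D425 shCRX, against 0.504, 2.02 and 1.45 CPM in D425 controls (2.81 ± 0.50 on the log2 scale, edgeR adjusted p = 0.0114). HD-MB03 libraries labelled shCRX had 0.357 and 0.931 CPM, against 18.2 and 17.7 CPM in controls (-4.77 ± 0.68, adjusted p = 0.00583). The difference of the effects was 7.58 ± 0.84 (adjusted p = 0.000668), the lower-numbered libraries being high in both lines.

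Of 9 death receptors and adaptors, 2 rose and 0 fell in D425 shCRX, against 1.61% and 1.37% of all tested genes. These were FADD, the adaptor that recruits caspase-8 (1.60 ± 0.35, adjusted p = 0.0308), and TRADD, an adaptor of the TNF receptor (1.22 ± 0.30, adjusted p = 0.0498). FADD had 8.12, 10.8 and 12.5 CPM in D425 shCRX, against 3.42, 3.23 and 3.64 CPM in D425 controls, and 1.22 and 1.93 CPM in HD-MB03 libraries labelled shCRX, against 13.5 and 6.97 CPM in HD-MB03 controls. In HD-MB03 FADD was lower by -2.69 ± 0.48 (adjusted p = 0.018), and its effects differed by 4.29 ± 0.59 (adjusted p = 0.00226). TRADD had 2.94 to 4.15 CPM in the HD-MB03 libraries labelled shCRX and 3.75 to 4.68 CPM in HD-MB03 controls, and its effects were not shown to differ (1.48 ± 0.54, adjusted p = 0.139).

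Among 11 tested genes for turnover and control of BCL2 family proteins, BTRC, an F-box subunit of ubiquitin ligases, fell in D425 shCRX (-0.99 ± 0.23, adjusted p = 0.0373), to 72.9, 94.5 and 94.6 CPM, against 198, 161 and 159 CPM in D425 controls. It had 104 and 74.3 CPM in HD-MB03 libraries labelled shCRX, against 60.9 and 34.3 CPM in HD-MB03 controls, and its effects differed by -1.89 ± 0.37 (adjusted p = 0.0147). No inhibitor of apoptosis gene (5 tested) passed in D425, in HD-MB03 or in their difference, against 2.97%, 1.51% and 4.16% of all tested genes.

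**Figure D4:**
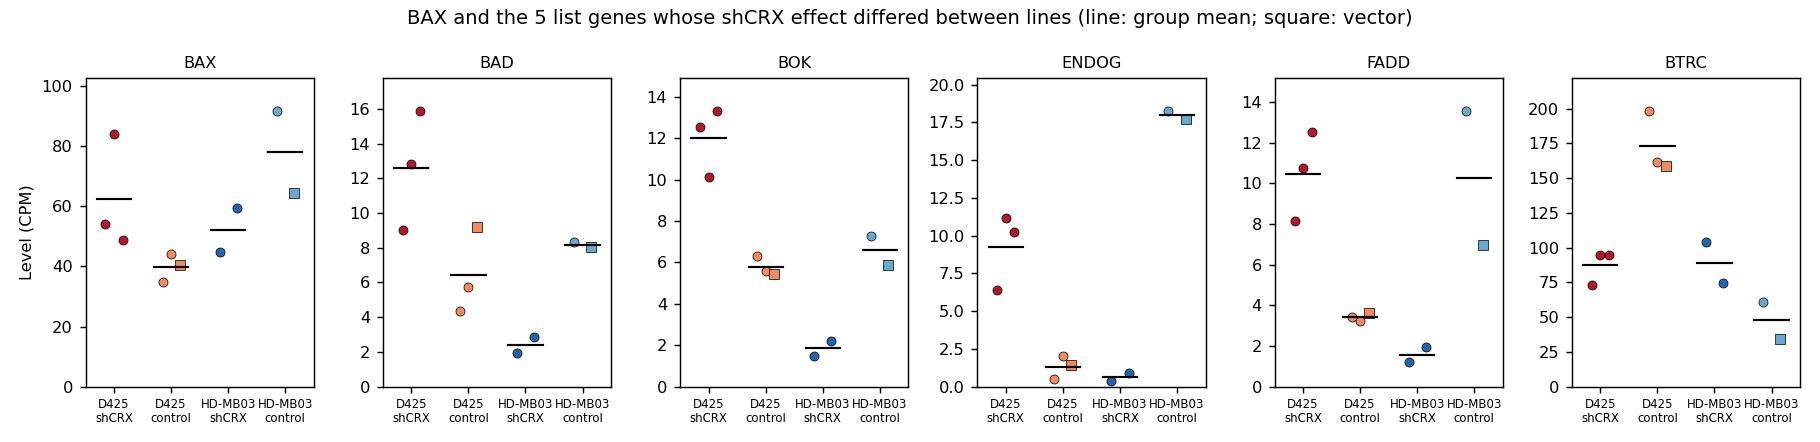
Level (CPM, linear axis from 0, a separate scale per gene) of BAX and of the 5 pathway genes whose shCRX effect differed between the lines; points are libraries and horizontal lines group means. BAX, BAD, BOK, ENDOG and FADD have higher means in D425 shCRX than in D425 controls and lower means in HD-MB03 libraries labelled shCRX than in HD-MB03 controls, and BTRC has the reverse.

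Between the lines, the same lists passed as follows, against the background of 24.4% higher and 21.6% lower in D425. Of 9 further family members 6 were higher and 1 lower, with BNIP3L (1.74), BOK (1.25) and BAD (1.01) the largest in size. These are means over arms, and the control means of the last pair were lower in D425, 5.78 CPM in D425 and 6.59 CPM in HD-MB03 for BOK, and 6.43 and 8.19 CPM for BAD. Of 9 apoptosome and release genes 3 were higher and 1 lower, led by HTRA2 (1.03), DIABLO (0.92) and AIFM1 (0.71). CASP9, the apoptosome's caspase, was higher by 1.52. Of 5 inhibitors of apoptosis 3 were higher and 1 lower, with BIRC3 (4.04, from levels at or under 1.38 CPM), BIRC2 (1.65) and XIAP (0.70) the largest.

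Among the named genes of these lists, those of the death receptor list had the largest differences in size. TNFRSF10A, which encodes the TRAIL receptor DR4, had 0 counts in all 6 D425 libraries and 453 in HD-MB03, at least 275-fold lower in D425 when 3 counts over the line serve as the floor. CFLAR, which encodes the caspase-8 inhibitor FLIP, had 1.79 to 3.72 CPM in D425 shCRX and 1.37 to 2.18 CPM in D425 controls, against 60.5 and 73.5 CPM in HD-MB03 libraries labelled shCRX and 89.0 and 71.3 CPM in HD-MB03 controls (-5.03 ± 0.21, adjusted p = 3.31e-09). TNFRSF1A, which encodes a TNF receptor, was higher in D425 (4.48 ± 1.01), with 16.1 to 31.2 CPM there and 0, 8.59, 0 and 0.536 CPM in the HD-MB03 libraries, where library 2 labelled shCRX stood apart. In all, 3 of 9 receptor and adaptor genes were higher and 3 lower, and CASP8 was not tested for lack of counts. Of 11 turnover and control genes 5 were higher and 0 lower, led by DDIT3 (3.53), which encodes the stress factor CHOP, BTRC (0.91, with means of 87.4 and 89.2 CPM in the D425 and HD-MB03 shCRX arms) and USP9X (0.81), a deubiquitinase of MCL1.

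Likeness of pattern was measured as the root-mean-square difference of log2 CPM over the 10 libraries after each gene's mean was taken off. BMF, the member with the largest change in D425, was most like CYSTM1 (0.26), CACFD1 (0.27) and SDCBP (0.29), where the median over 10466 protein-coding genes was 0.86. BCL2, the member with the largest line difference, was most like COL5A1 (0.28), GDNF (0.28) and AGAP1 (0.30), against a median of 1.74 over 10467 genes. Among the members themselves BCL2L1 and BAK1 were the most alike (0.37) and BCL2 and BMF the least (2.35). These values describe 10 libraries that share lines and library-number sets.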

How the data were processed

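Poly(A)-selected RNA of 10 libraries was sequenced, and the deposited values are raw read counts per gene, 1 table per library. The authors counted reads with HTSeq after alignment with HISAT2 to GRCh37 (hg19), tools and build named, without versions, in the submitters' processing notes. The annotation at hand (GENCODE 29, GRCh38) is of another build and served for symbols, lengths, GC content and exon overlaps. Counting entries that name no gene (reads outside genes, ambiguous, not aligned or not unique) stayed out of library sizes, and genes held 50.5 to 79.3% of reads. Libraries of an arm were never identical (0 of 8 pairs, chi-square per degree of freedom 9.2 to 52.8).

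Counts were analysed with edgeR 4.0.16 in R 4.3.3 (TMM scaling, filterByExpr with 4 groups, robust quasi-likelihood fit, two-sided, Benjamini-Hochberg adjusted p under 0.05 over 16006 genes, biological coefficient of variation 26%), after tests on simulated data. A value of 3 counts is 0.166 to 1.53 CPM. Alternatives used DESeq2 1.42.0 and limma-voom 3.58.1, other scalings, filters and controls, thinning, a GC and length correction and left-out libraries. Controls of a line were its parental and vector libraries pooled as 1 group. D425 parental and shCRX libraries share replicate numbers only (correlation of deviations 0.0137), so no block was used.

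Named genes were all 10 members, CRX, pathway genes passing within or between line effects, and the 3 largest line differences per list, except that some results of the caspase list are not reported here. Members and lists were chosen with earlier results of these data known. Poisson intervals and floors cover counting error only.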

Additional observations from a re-analysis of the deposited data

Results flagged for a closer look

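The effect of the shCRX label differed between the lines for 6 named genes, where 4.16% of all tested genes passed. Genes from the pathway lists were named for passing a comparison, so their number is not a result. BAX did not pass, and the share of all genes with its pattern was not counted. For BAX, all D425 shCRX libraries were above their controls and both HD-MB03 libraries labelled shCRX below theirs. Its difference of the effects, D425 minus HD-MB03, was 1.23 in log2 units (adjusted p = 0.0889 with edgeR), and 0.57 after the GC and length correction. The difference passed for ENDOG (7.58), FADD (4.29), BOK (2.87), BAD (2.73), BTRC (-1.89) and CRX (-2.14). Alternatives were not examined for these genes. After the GC and length correction, 2.08% of all tested genes passed this comparison. In the HD-MB03 parental and vector libraries, reads were 35 and 33 for ENDOG, 26 and 13 for FADD and 14 and 11 for BOK. They were 16 and 15 for BAD, 117 and 64 for BTRC and 24 and 23 for CRX. In group means, the lower-numbered libraries of each line (D425 shCRX and HD-MB03 controls) were the higher for BAX, ENDOG, FADD, BOK and BAD and the lower for BTRC and CRX. The part of these sets in the differences was not tested, since within a line arm and set cannot be told apart.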

How the results depend on the processing

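Of the values named for single members, all called line differences kept their direction under every alternative run, and calls were lost for BCL2L2, BAK1, MCL1 or BMF under some of them. BCL2 had too few counts to be tested when at least 10 counts were asked of every library. The count of members differing between the lines was 5 to 8 when each library was left out in turn (34.5 to 49.0% of all tested genes), 6 without both HD-MB03 controls (chosen after seeing the data), and 4 within the higher-numbered and 4 within the lower-numbered libraries, where fewer libraries enter each comparison. With no filter on low counts 1 member passed in D425 (BMF), as did 1211 of 31421 genes (3.85%), against 476 of 16006 (2.97%) with the filter. With DESeq2 1 passed for the difference of the effects (BAX), as did 1370 of 14139 genes (9.69%), against 666 (4.16%) with edgeR. The cause was not tested. With edgeR and the filter, both counts of members were 0 with all libraries. They were also 0 when each D425 library was left out in turn. Of all tested genes, 1.19 to 2.67% then passed in D425 and 2.35 to 5.27% for the difference of the effects. That difference rests on the HD-MB03 libraries as well. Leaving out 1 of them leaves 1 library in its group, so no passing share is given for it. For BAX the difference was 0.92 to 1.43 when each of the 10 libraries was left out. No library was left out in the fits without the filter or with DESeq2.

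Among values that missed the threshold, BAX, BMF and BCL2L1 in D425 kept their direction in 23 of 23 alternatives, and BAX, BMF, BID, MCL1 and BCL2L2 in HD-MB03 in 20 of 20. These counts include fits that left out only libraries of the other line. Such fits could hardly turn a direction, so the counts overstate how far it was tried. Other values turned. For shCRX against controls in D425, BCL2 (main value -0.07) was 0.056 with unscaled totals, 1.19 with the vector alone as control, 0.28 thinned and 0.013 after the GC and length correction. BCL2L2 (-0.32) was 0.037 with parental controls alone, BAK1 (0.11) -0.10 with the vector alone and -0.10 after GC correction, BCL2L11 (-0.21) 0.020 with the vector alone, and BID (0.14) -0.10 thinned. In HD-MB03, BAK1 (-0.10) was 0.34 with the vector alone and 0.21 after GC correction, and BCL2L11 (0.15) was -0.27 thinned. Between the lines BID (0.16) was -0.065 within the higher-numbered libraries and -0.0040 without both HD-MB03 controls. Leaving out each library in turn gave, in D425, -0.75 to 0.88 for BCL2, -0.046 to 0.25 for MCL1, -0.79 to 0.048 for BCL2L2, -0.075 to 0.21 for BAK1 and -0.075 to 0.37 for BID, and in HD-MB03 -0.31 to 0.46 for BCL2, -0.86 to 0.0040 for BCL2L1 and -0.42 to 0.39 for BAK1.

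D425 parental and shCRX replicates 1 and 2 alone, with a replicate block, gave 0 members passing in the paired fit (BID -0.089). Of all genes in that fit, 42 of 14288 passed (0.294%). Without the replicate block 0 members passed (BCL2L2 0.091, BID -0.026). In that fit 0 of 14288 genes passed, so the member counts cannot show what the block changes.

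The ratio of anti-apoptotic to pro-apoptotic level was 1.74 in D425 shCRX and 3.01 in D425 controls with median transcript lengths, and 1.66 and 2.58 with coding lengths. In HD-MB03 it was 1.43 in controls with coding lengths. Without BCL2L1 and BAX it was 1.07 in D425 shCRX, 1.24 in D425 controls, 2.01 in HD-MB03 libraries labelled shCRX and 1.80 in HD-MB03 controls. Depth limits BCL2 in D425 and BIK everywhere.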
